A study of Mus musculus with 32 samples.

Results

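The extracellular matrix genes Bgn, Dcn, Lum, Col1a1, Col1a2, Col3a1, Fn1, Vtn, Spp1 and Igfbp2 were followed across cultured mouse hippocampal neurons separated into soma and neurites. These 10 genes were taken by symbol from the 55573 genes of the deposited count table. Bgn, Spp1 and Vtn had been selected on a measured value, because their neurite enrichment was lower in untreated Mettl3 KO than in untreated WT neurons, so the values of these 3 genes in untreated libraries, and of all 10 genes in that contrast, are given as a description with no test. The genes are known as products of fibroblasts and vascular cells, which a neuronal culture should hold few of.

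The RNA-seq samples comprised 16 libraries in 8 groups of 2. WT neurons were C57BL/6 and Mettl3 KO neurons came from Mettl3 Flox/Flox mice (genotype label Mettl3-/-). All cultures, WT included, received an AAV carrying hSyn-Cre-P2A-dTomato on DIV 7 at 50000 vg per cell, so Cre was expressed only where the neuronal synapsin promoter is active and glia or other cells were not targeted. All cultures were silenced on DIV 14 with 1 µM TTX and 50 µM D-AP5 for 16 h and were kept for 15 days, and those labelled KCl were then depolarized with 55 mM KCl for 2 h while those labelled Ctrl were not. Neurons grew on porous inserts that neurites cross and cell bodies do not, so each insert gave a soma and a neurite library, and the soma side can also hold neurites. According to the study's methods the pups were newborn, hippocampi were pooled by litter, the duplicates came from separate litters, neurons of the same litter were used for Ctrl and KCl, and Ara-C was added against dividing glia. A replicate number shared by a soma and a neurite library is taken here to mark 1 insert, which the labels do not state. A library is named below by genotype, compartment, treatment and replicate number.

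Fibrillar collagens form the tensile fibres of connective tissue, small leucine-rich proteoglycans bind these fibres and set their spacing, and adhesive glycoproteins link the fibres and the plasma to integrins on cells. In the brain this kind of matrix is mostly found in the meninges and around vessels, whereas the matrix between neurons is built mainly of hyaluronan and lecticans. Spp1 and Igfbp2 are in addition made by other brain cells, Spp1 by reactive microglia and some neurons and Igfbp2 by astrocytes and choroid plexus.

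Fragments assigned to genes ranged from 33789183 to 71394235 per library. Mettl3 was lower in KO than in WT libraries without overlap in each of the 4 matched comparisons (6.18 to 11.0 against 13.5 to 16.7 CPM, counts scaled to a fixed library total, in soma and 3.91 to 8.23 against 9.04 to 12.4 CPM in neurites), and the log2 differences of -0.73 ± 0.39 in untreated soma (SE, n = 2 against 2; edgeR adjusted p = 0.624), -1.19 ± 0.39 in untreated neurites (adjusted p = 0.423), -0.91 ± 0.38 in KCl-treated soma (adjusted p = 0.305) and -0.73 ± 0.38 in KCl-treated neurites (adjusted p = 0.259) did not pass the test. These Mettl3 values are counts over the whole gene. The study reported loss of the loxP-flanked exon in KO reads, an almost complete loss of METTL3 protein and lower m6A levels in KO neurons. Both libraries of the KCl-treated KO insert 1 stood apart from the other 14. In its soma and neurite library the summed CPM of 10 oligodendrocyte lineage markers was 4680 and 9490 against 86.8 to 254 in the other 14 libraries, that of 11 astrocyte markers 9940 and 19400 against 1180 to 6780, that of 11 microglia markers 591 and 440 against 21.8 to 94.6, and that of 11 neuron markers 2170 and 1250 against 3960 to 7220. The edgeR results for the 10 genes that include this insert are therefore given with and without it, and without it the KCl-treated KO groups hold 1 library each, assumed to vary like the other groups.

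The labels fibroblast and vessel were checked against 3 marker lists that hold none of the 10 genes. In the other 14 libraries the summed CPM of 11 fibroblast markers was 3.58 to 5.81, with Slc6a13, a transporter of meningeal fibroblasts, at 0 to 0.391 CPM and Foxc1, a transcription factor of meningeal development, at 0.152 to 0.761 CPM. In the KCl-treated KO insert 1 this sum was 15.9 in soma and 52.5 in neurites, and Slc6a13 reached 3.85 and 33 CPM. The 10 mural markers summed to 23.2 to 164 CPM in the 14 libraries, of which Rgs5 (14.4 to 153 CPM) gave most, while the channel subunit Kcnj8 was at 0 to 0.301 CPM. The 10 endothelial markers summed to 23.5 to 53.6 CPM, with the junction genes Pecam1 at 1.17 to 2.31 and Cldn5 at 0.0278 to 0.565 CPM, and to 35.8 and 19.5 CPM in the KCl-treated KO insert 1, where Cldn5 alone was at 5.55 and 0.951 CPM. The 8 choroid plexus and ependymal markers summed to 24.7 to 82.3 CPM against 201 and 291 in that insert, with Ttr at 0.457 to 11.1 CPM in the 14 libraries. No list had a gene at 0 in all 16 libraries. Most of the endothelial sum came from Egfl7 (18.1 to 31.7 CPM) and Kdr (2.06 to 18.9 CPM), and each of the other 8 was at most 2.31 CPM in the 14 libraries. Fibroblast markers were thus low in 14 libraries while part of the endothelial and mural lists was detected, and the genes are called matrix genes here rather than by cell type. CPM is a share of the fragments of a bulk culture, in which fewer cells of a type and less RNA per cell cannot be told apart.

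**Figure D1:**
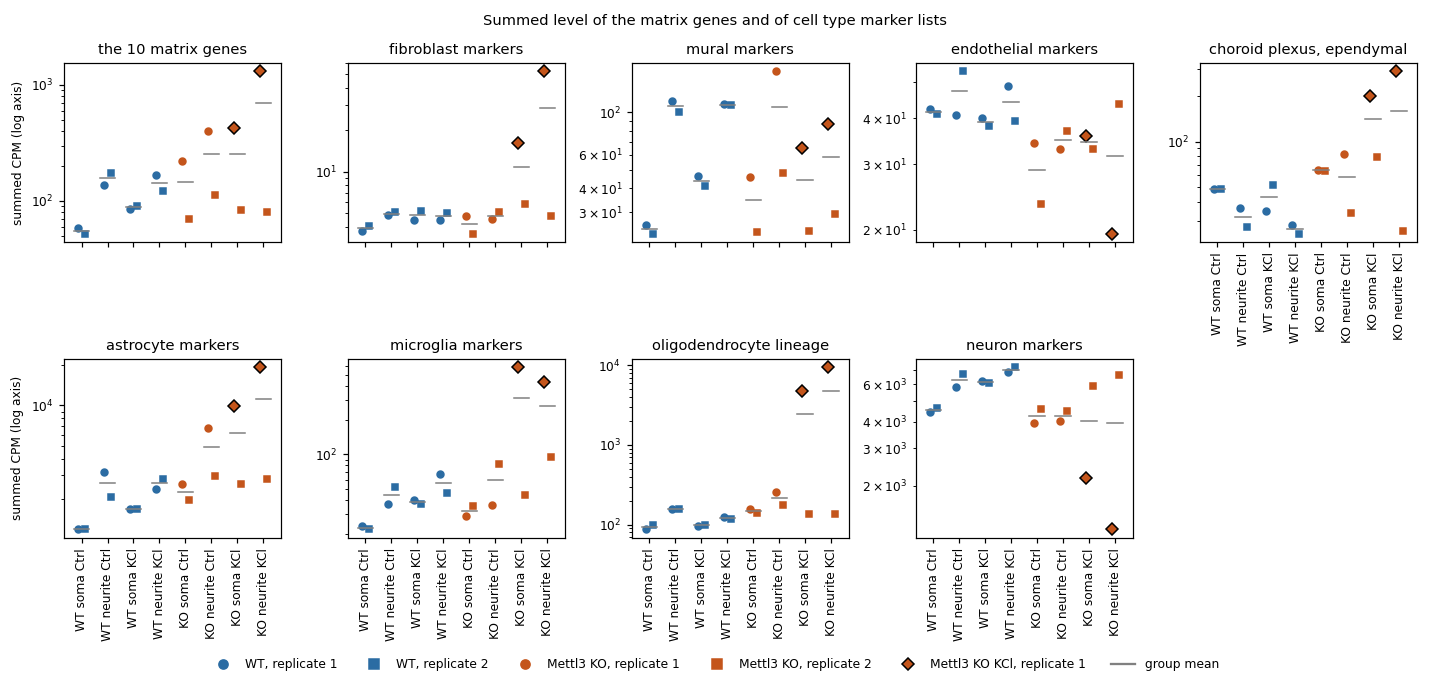
Summed CPM (y axis, log scale) of the 10 matrix genes and of 8 cell type marker lists in each of the 16 libraries (x axis, 8 groups; points are libraries, grey bars group means, diamonds the KCl-treated KO insert 1). The diamonds lie above all other libraries for the matrix genes and for fibroblast, choroid plexus, astrocyte, microglia and oligodendrocyte lineage markers, and below all others for neuron markers.

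Positions are given for GRCm38 (mm10) from GENCODE M21. Col1a1, the alpha 1 chain of type I collagen (ENSMUSG00000001506), lies at chr11:94936224-94953042 (+) and Col1a2, its alpha 2 chain (ENSMUSG00000029661), at chr6:4504814-4541544 (+). Col3a1, the type III chain (ENSMUSG00000026043), lies at chr1:45311538-45349706 (+). Of the small leucine-rich proteoglycans, Bgn, biglycan (ENSMUSG00000031375), lies at chrX:73483602-73495933 (+), and Dcn, decorin (ENSMUSG00000019929), and Lum, lumican (ENSMUSG00000036446), lie next to each other at chr10:97479609-97518143 (+) and chr10:97565128-97572703 (+). Of the adhesive glycoproteins, Fn1, fibronectin (ENSMUSG00000026193), lies at chr1:71585520-71653200 (-), Vtn, vitronectin (ENSMUSG00000017344), at chr11:78499091-78502324 (+), and Spp1, osteopontin (ENSMUSG00000029304), at chr5:104435118-104441050 (+). Igfbp2, a carrier of insulin-like growth factors (ENSMUSG00000039323), lies at chr1:72824503-72852474 (+). Fragments were counted without strand, and Fn1 overlaps the antisense gene Apol7d on the opposite strand, so their reads cannot be told apart where they overlap. Col1a2 overlaps Gm43921, Col3a1 the miRNA gene Gm47302 and Spp1 Gm42793, each on the same strand, with the same limit.

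DART-seq, which marks m6A by C-to-U editing next to the methylated base, was deposited as a list of 18231 sites. It held 4 sites in 2 of the 10 genes, 2 in Spp1 and 2 in Igfbp2, and none in the other 8. The sites are shown because they are the only m6A calls in these genes. Each window of 25 bases is read from the RefSeq GRCm38 genome on the gene's strand, with the 3 bases R-A-C, the motif that the authors required, in capitals and the edited C last among them.
Spp1, chr5:104439544: gtttctgatgAACaggtaaatgatg
Spp1, chr5:104440792: gtttcatgcaAACaccgttgtaacc
Igfbp2, chr1:72849677: ccccaactgtGACaagcatggccgg
Igfbp2, chr1:72852117: tctcttctacAACgagcagcaggag
The Spp1 site at 104439544 is in the coding sequence in exon 6 of 7 of transcript Spp1-201, and that at 104440792 is in the 3′ UTR in exon 7. Both Igfbp2 sites are in the coding sequence, in exons 3 and 4 of the 4 exons of Igfbp2-201. The authors' mean C-to-U conversion was 7.1% and 10.3% at the 2 Spp1 sites, which is at or above 80.9% and 91.3% of all sites listed. It was 0.731% and 1.91% at the 2 Igfbp2 sites, at or above 2.64% and 22.8% of sites, and the median over all sites was 3.54%. The authors' editing score, which sums the C-to-U fractions over the sites of an RNA, was 0.192 for Spp1 in WT with no value listed for Mettl3 KO, and 0.180 in soma and 0.171 in neurites. For Igfbp2 it was 0.0247 in WT and 0.0112 in KO, and 0.0118 in soma and 0.0341 in neurites. These are pooled values without a replicate spread or a read depth, so no difference between them was tested, and a gene with few reads had little chance of a called site.

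Most matrix genes were scarce. Per kilobase of exon, as RPKM on the TMM-scaled library size, the mean over the 14 libraries other than the KCl-treated KO insert 1 was 45.1 for Igfbp2 (SD 47.4, n = 14), 7.36 for Spp1, 2.09 for Col1a1, 0.740 for Vtn, 0.637 for Fn1, 0.544 for Bgn, 0.543 for Col3a1, 0.364 for Lum, 0.273 for Col1a2 and 0.188 for Dcn. Igfbp2 was above Spp1 in 14 of 14 libraries, Spp1 above Col1a1 in 13 and Col1a1 above Vtn in 13. The 6 further neighbouring pairs in this order changed places between libraries (9 to 11 of 14 in the stated order), and their means differed by less than 1 SD. Set among all genes whose count averaged 10 or more, the mean RPKM of Igfbp2 stood at the 93.1 percentile, that of Col1a1 at the 50.7 and that of Dcn at the 13.1. The lowest count of any of the 10 genes in a library was 7, for Lum.

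In the KCl-treated KO insert 1, 9 of the 10 genes had their highest level of all 16 libraries, all in its neurite library. Dcn was at 0.416 to 3.11 CPM in the other 14 libraries (median 0.965), at 12.6 CPM in the soma and at 127 CPM in the neurites of that insert, which is 40.8 times the highest of the 14. The corresponding ratio was 12.5 for Col1a2, 11.0 for Lum, 9.80 for Col3a1, 6.02 for Col1a1, 5.34 for Vtn, 4.53 for Bgn, 3.03 for Fn1 and 1.35 for Igfbp2. Spp1 was the exception, with 19.8 CPM (soma) and 26.4 CPM (neurites) in this insert against a highest value of 47.0 CPM in a WT neurite KCl library. The ratio of Col1a1 to Col1a2 per kilobase was 4.80 and 4.45 in this insert and 3.16 to 16.0 in the other 14 libraries, whereas that of Dcn to Bgn was 1.58 and 3.09 against 0.110 to 1.22. The part of the glial and fibroblast marker signal given above in these levels was not tested.

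**Figure D2:**
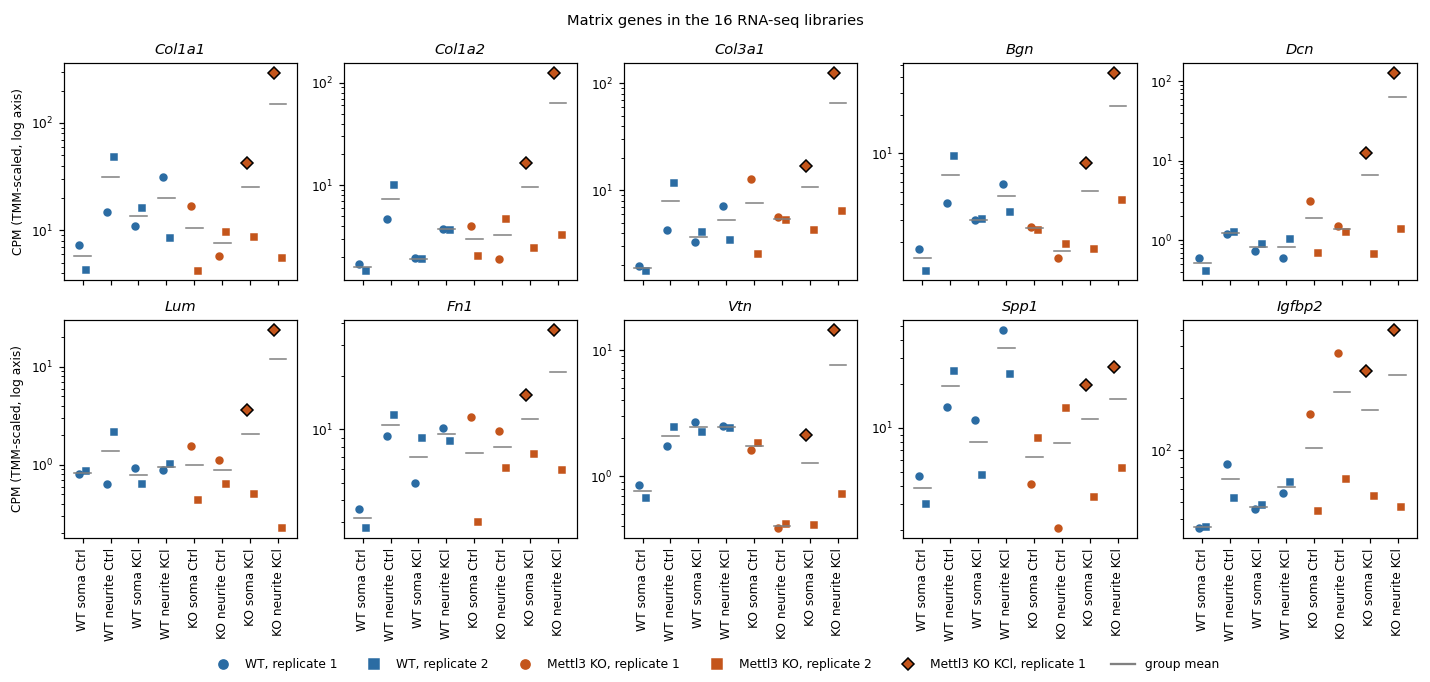
Level of each of the 10 matrix genes (y axis, TMM-scaled CPM on a log scale) in the 16 libraries (x axis, 8 groups of 2; points are libraries, grey bars group means, diamonds the KCl-treated KO insert 1). Dcn reaches 127 CPM in the neurites of that insert against at most 3.11 CPM in the other 14 libraries, and Spp1 alone is highest in WT neurites after KCl.

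The comparison of neurites with soma asks which RNAs are relatively more abundant in the processes. In untreated WT inserts 9 of the 10 matrix genes were higher in both neurite libraries than in both soma libraries, and among all 23200 genes tested 32.9% were. The 9 include Bgn, Vtn and Spp1, whose picking used these libraries. The others were Dcn, Col1a1, Col1a2, Col3a1, Fn1 and Igfbp2. Lum was the exception. Col1a1 was at 7.24 and 4.27 CPM in WT soma and at 14.8 and 48.6 CPM in WT neurites. Fn1 was at 3.52 and 2.77 CPM in soma and at 9.25 and 12.1 CPM in neurites. Both genes had soma and neurite libraries that did not overlap, with neurite replicates of Col1a1 further apart than those of Fn1. Igfbp2 was at 35.6 and 35.8 CPM in soma and at 83.2 and 52.8 CPM in neurites. With all 16 libraries sharing 1 estimate of spread, none of the 7 genes that can be tested here passed a 1.5-fold change and an adjusted p of at most 0.05. The log2 differences were 2.46 ± 1.34 for Col1a1 (SE, n = 2 against 2; edgeR adjusted p = 0.744), 2.20 ± 1.20 for Col1a2 (adjusted p = 0.744), 2.08 ± 1.12 for Col3a1 (adjusted p = 0.739) and 1.76 ± 0.79 for Fn1 (adjusted p = 0.670). Under that rule 0.0% of all genes were called in either direction, while 5.06% were higher and 2.00% lower at an unadjusted p, and DESeq2 called 0.849% higher and 0.0948% lower and none of the 7. In the 4 untreated WT libraries alone 6 of the 7 passed, against 10.6% of all genes higher and 3.21% lower. There the log2 difference was 1.74 ± 0.21 for Fn1 (edgeR adjusted p = 0.00123), 2.16 ± 0.35 for Col1a2 (adjusted p = 0.00452), 2.42 ± 0.50 for Col1a1 (adjusted p = 0.0121), 2.05 ± 0.43 for Col3a1 (adjusted p = 0.0125), 1.25 ± 0.36 for Dcn (adjusted p = 0.0401) and 0.92 ± 0.19 for Igfbp2 (adjusted p = 0.0122). Lum was at 0.69 ± 0.53 (adjusted p = 0.387). The median log2 difference of the 10 genes, picked genes included, was 1.92 against 0.00 for all genes in the 16-library fit. The summed astrocyte markers moved the same way, at 1180 and 1200 CPM in WT soma and 3170 and 2070 CPM in WT neurites, as did the mural markers (25.6 and 23.2 against 115 and 100 CPM), while fibroblast markers were at 3.72 and 4.08 against 4.86 and 5.08 CPM. Neuron markers were also higher in neurites without overlap (4460 to 4640 against 5840 to 6700 CPM), as were microglia and oligodendrocyte lineage markers. Choroid plexus and ependymal markers were lower (48.5 to 48.7 against 27.2 to 36.3 CPM), and endothelial markers overlapped. The part of these cells in the difference was not tested.

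After KCl the median log2 ratio of the 10 genes was 0.94 and 0.18 in the WT inserts 1 and 2, beside 1.15 and 2.41 in the untreated ones. These medians include Bgn, Spp1 and Vtn, whose picking used the untreated inserts. In WT neurites against soma 4 of the 10 genes did not overlap and were higher in neurites (Bgn, Col1a2, Spp1 and Igfbp2), with 26.3% of all genes in that class, and the median log2 difference of the 10 was 0.48 against -0.04 for all genes. Spp1 stood out, at 11.3 and 4.75 CPM in soma and 47.0 and 23.4 CPM in neurites. Its log2 difference was 2.14 ± 1.02 (SE, n = 2 against 2; edgeR adjusted p = 0.952) in the 16-library fit, where 0.0% of genes were called, 3.03% were higher and 1.81% lower at an unadjusted p, and DESeq2 called 0.217% higher and 0.0478% lower and no matrix gene. In the 4 libraries alone it was 2.18 ± 0.41 (adjusted p = 0.0131), where Col1a2 also passed at 0.98 ± 0.23 (adjusted p = 0.0300) and 6.16% of all genes were higher and 1.68% lower. Vtn was at 2.71 and 2.24 CPM in soma and 2.52 and 2.43 CPM in neurites and Dcn at 0.740 and 0.901 against 0.606 and 1.03 CPM, so both showed no separation of the compartments.

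In Mettl3 KO neurons the 4 inserts went different ways. Within the untreated KO insert 1, 9 of the 10 genes were lower in neurites than in soma (median log2 ratio -1.02), and within the untreated KO insert 2, 8 were higher (median 0.78). Col3a1 was at 12.8 CPM (soma) and 5.65 CPM (neurites) in insert 1 and at 2.57 and 5.26 CPM in insert 2. Only Bgn and Vtn were lower in neurites in both. In KCl-treated KO insert 1 all 10 were higher in neurites (median 2.73, 0.42 to 3.33), and in KCl-treated KO insert 2, 6 were (median 0.51). These counts and medians include Bgn, Spp1 and Vtn, whose picking used the untreated inserts. The share of all genes within each insert is not given, so a shift of a whole library cannot be told apart. In the group fits the median log2 difference of all genes was -0.06 untreated and 0.06 after KCl. No gene that could be tested passed in either KO comparison, and 0.0% of all genes did. Bgn, Spp1 and Vtn had no test in the untreated one. At an unadjusted p 9.31% of genes were higher and 4.67% lower in untreated KO neurites, and 0.872% and 1.10% after KCl. Without the KCl-treated KO insert 1 none passed after KCl either, with 0.0% of all genes called in both directions and a median of 0.50. DESeq2 called none of the genes that could be tested in either comparison, against 3.49% of all genes higher and 0.771% lower untreated and 0.0% and 0.00432% after KCl. In both untreated KO inserts together Bgn and Vtn had neurites below soma without overlap, in a class with 22.6% of all genes. Both were picked on a contrast that uses these libraries, so this is a description.

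**Figure D3:**
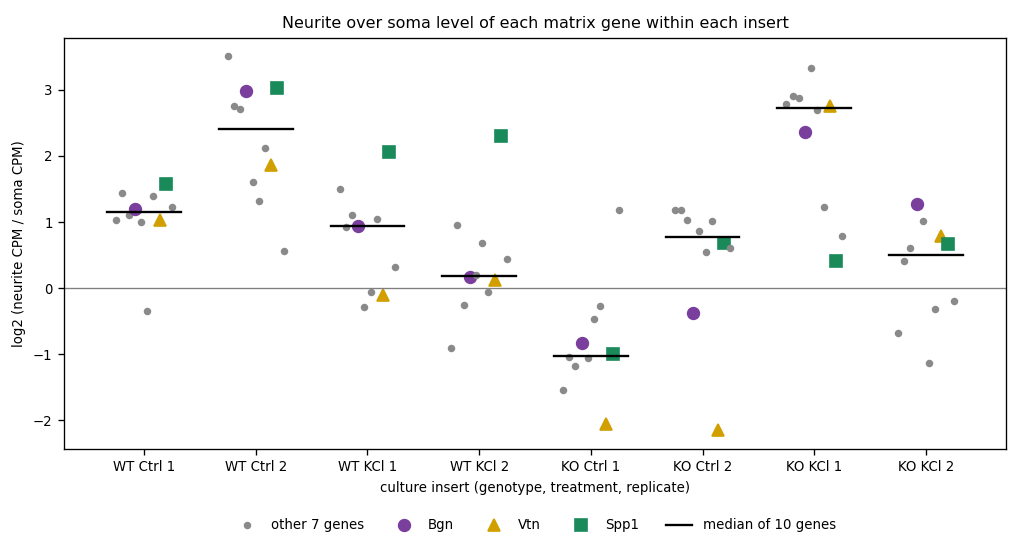
Log2 ratio of neurite to soma CPM (y axis) of each of the 10 matrix genes within each of the 8 culture inserts (x axis), with Bgn, Vtn and Spp1 marked and the median of the 10 as a bar. The medians are 1.15 and 2.41 in untreated WT inserts, -1.02 and 0.78 in untreated KO inserts and 2.73 in the KCl-treated KO insert 1. The picking of Bgn, Vtn and Spp1 used the untreated inserts.

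Mettl3 KO was compared with WT within each compartment. In untreated soma all 10 genes had a positive log2 difference (median 1.04 against 0.02 for all genes), with Lum at -0.04 under the replicate block, and 6 did not overlap, where 25% of all genes did not overlap in that direction. The 6 were Dcn, Col1a2, Col3a1 and Igfbp2, and also Bgn and Vtn, whose picking used these libraries. The median includes the picked genes. Col3a1 was at 12.8 and 2.57 CPM in KO soma and 1.96 and 1.79 CPM in WT soma, a log2 difference of 2.03 ± 1.11 (SE, n = 2 against 2; edgeR adjusted p = 0.637). Igfbp2 was at 162 and 44.7 CPM against 35.6 and 35.8 CPM, a difference of 1.54 ± 1.04 (adjusted p = 0.719). The KO replicates of both genes were further apart than the lower KO library was from WT. Summed markers of some other cells were also higher in KO soma without overlap, at 1970 to 2570 against 1180 to 1200 CPM for astrocytes, 140 to 155 against 86.8 to 97.7 CPM for the oligodendrocyte lineage, 64.4 to 64.5 against 48.5 to 48.7 CPM for choroid plexus and ependyma and 28.7 to 35.4 against 21.8 to 23.5 CPM for microglia. Endothelial markers were lower without overlap, at 23.5 to 34.3 against 41.0 to 42.3 CPM. Fibroblast (3.58 to 4.8 against 3.72 to 4.08 CPM), mural (23.8 to 45.9 against 23.2 to 25.6 CPM) and neuron markers overlapped. The part of these cells was not tested. In untreated neurites the median was -0.89 against 0.01, with the picked genes included. Of the 7 genes not picked, only Col1a1 and Col1a2 were lower without overlap, in a class that held 25.8% of all genes. Bgn, Vtn and Spp1 were lower too, but their picking used these libraries, so they add no evidence. Col1a1 was at 5.74 and 9.62 CPM in KO neurites and 14.8 and 48.6 CPM in WT neurites (-2.04 ± 1.33, adjusted p = 0.867). No testable gene passed in untreated soma, where 0.0632% of all genes were called higher and 0.122% lower, or in untreated neurites, with 0.0642% and 0.124%. At an unadjusted p the background was 4.29% and 4.28% in soma and 2.59% and 4.42% in neurites, and DESeq2 also called none of the 7, with 0.804% higher and 0.952% lower in soma and 0.527% and 0.908% in neurites.

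After KCl the comparison of KO with WT rested on the insert that stood apart. In neurites the median log2 difference of the 10 genes was 2.62 against 0.09 for all genes, and Dcn was at 127 and 1.37 CPM in KO and 0.606 and 1.03 CPM in WT, the only one of the 10 without overlap. Its log2 difference was 6.27 ± 1.75 (SE, n = 2 against 2; edgeR adjusted p = 0.114) and that of Col3a1 3.62 ± 1.18 (adjusted p = 0.13). None of the 10 passed with edgeR, where 0.102% of all genes were higher and 0.338% lower (14.5% and 8.77% at an unadjusted p). DESeq2 called 4 of them higher (Col1a2, Col3a1, Dcn and Lum) with a background of 7.01% higher and 4.54% lower. Without the KCl-treated KO insert 1 the median was -0.55 and none of the 10 passed in neurites, with 0.101% of all genes higher and 0.272% lower. In soma none passed with all libraries (0.0458% higher and 0.166% lower, 8.12% and 6.04% at an unadjusted p) or with DESeq2 (2.29% and 1.94%). Without insert 1, Vtn was lower in KO soma, at 0.415 CPM in the 1 remaining KO library against 2.71 and 2.24 CPM in WT, a log2 difference of -2.56 ± 0.42 (edgeR adjusted p = 0.0487, with the spread of the lone KO library taken from the other groups), where 0.0514% of genes were higher and 0.180% lower.

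The change in neurite enrichment, the difference between KO and WT in the log2 ratio of neurites to soma with 1 term per insert, is the contrast on which Bgn, Spp1 and Vtn were picked in untreated inserts. Vtn was at 1.63 and 1.85 CPM in untreated KO soma and 0.391 and 0.417 CPM in untreated KO neurites, against 0.852 and 0.678 CPM in WT soma and 1.73 and 2.46 CPM in WT neurites. Bgn was at 2.65 and 2.51 CPM in KO soma and 1.5 and 1.95 CPM in KO neurites, against 1.79 and 1.20 CPM in WT soma and 4.10 and 9.47 CPM in WT neurites. Spp1 was at 4.13 and 8.51 CPM in KO soma and 2.06 and 13.7 CPM in KO neurites, against 4.66 and 3.02 CPM in WT soma and 14 and 24.7 CPM in WT neurites. The 2 KO neurite libraries of Spp1 were thus far apart, while those of Vtn and Bgn were close. The fitted change was -3.53 for Vtn, -2.67 for Bgn and -2.42 for Spp1. It was also below 0 for Col1a1 (-2.45), Col1a2 (-2.01), Col3a1 (-2.0), Dcn (-1.44), Fn1 (-1.40) and Lum (-0.54) and was 0.00 for Igfbp2. Among the genes not picked, Dcn, Col1a2, Col3a1 and Fn1 had both KO inserts below both WT inserts, where 16.4% of all genes did. Col1a1, Lum and Igfbp2 did not. Bgn, Vtn and Spp1 did, but they were picked on this contrast. The median over the 10, which includes the picked genes, was -2.01 against -0.03 for all genes, of which 2.91% were called higher and 1.28% lower in this contrast (5.85% and 1.06% with DESeq2).

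The KCl-treated inserts were not used in picking the 3 genes. By the study's methods they shared litters with the untreated inserts, so they are not independent of the picking. In the KCl-treated inserts the change in neurite enrichment of Spp1 was below 0, with log2 neurite-to-soma ratios of 0.42 and 0.68 in KO and 2.06 and 2.30 in WT. The fitted change was -1.64 ± 0.61 (SE, n = 2 against 2 inserts; edgeR adjusted p = 1.00), which passed the 1.5-fold and unadjusted p rule that the study used for this contrast, by which 1.10% of all genes were called lower. Bgn and Vtn went the other way. Bgn had ratios of 2.36 and 1.28 in KO and 0.94 and 0.17 in WT, a change of 1.29 ± 0.64 (edgeR adjusted p = 1.00) that did not pass. Vtn had ratios of 2.76 and 0.80 in KO and -0.11 and 0.12 in WT, a change of 1.95 ± 0.66 (edgeR adjusted p = 1.00). Dcn, at 3.33 and 1.02 against -0.29 and 0.19, changed by 2.39 ± 0.85 (edgeR adjusted p = 1.00). Vtn and Dcn were thus called higher, in a class with 0.715% of all genes, and the other 7 were not called. None passed at an adjusted p. DESeq2 made the same 3 calls by the unadjusted rule, with 0.458% of all genes higher and 1.28% lower. Of the 10, Bgn, Dcn and Vtn had both KO inserts above both WT inserts, where 17.6% of all genes did, and Spp1 below, where 14.5% did. Without the KCl-treated KO insert 1 the change was -1.53 ± 0.80 for Spp1 (edgeR adjusted p = 1.00), 0.76 ± 0.63 for Vtn (edgeR adjusted p = 1.00), 1.03 ± 0.87 for Dcn (edgeR adjusted p = 1.00) and 0.70 ± 0.80 for Bgn (edgeR adjusted p = 1.00), so no call remained, with 0.421% of all genes higher and 0.792% lower. The Spp1 call was lost on leaving out any 1 of the 4 inserts, with a change of -1.53 to -1.77, and those of Vtn and Dcn on leaving out any but the KCl-treated KO insert 2.

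**Figure D4:**
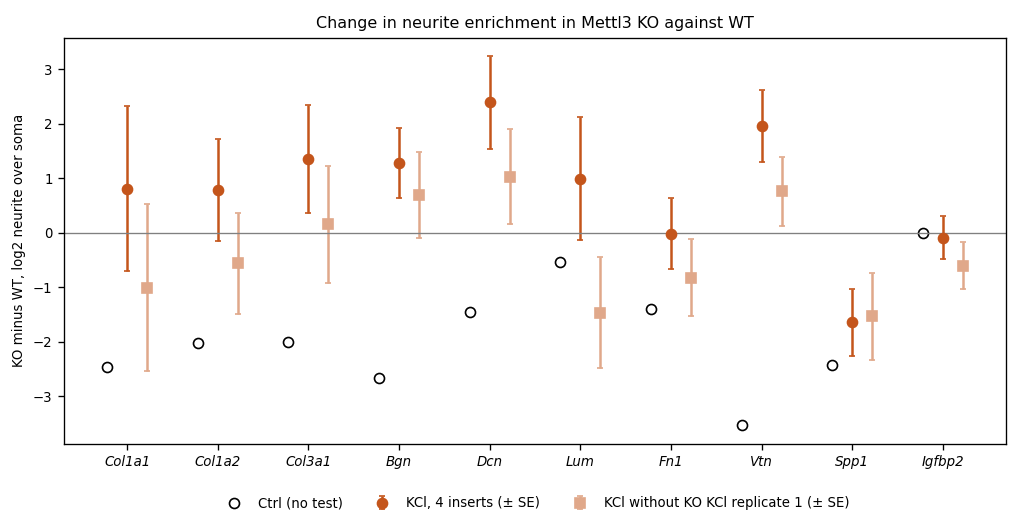
Fitted KO minus WT difference in log2 neurite over soma (y axis) of the 10 matrix genes (x axis) in untreated inserts (open circles, no test), in KCl-treated inserts (filled circles ± SE, 2 against 2 inserts) and in these without the KCl-treated KO insert 1 (squares ± SE). Spp1 lies below 0 in all 3, and Bgn and Vtn lie below 0 untreated and above 0 after KCl.

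KCl was compared with Ctrl to ask which RNAs respond to 2 h of depolarization. In WT soma 9 of the 10 genes were higher in both KCl libraries than in both Ctrl libraries, with 33.8% of all genes in that class, and the median log2 difference was 0.99 against 0.08. The 9 include Bgn, Vtn and Spp1, whose picking used the Ctrl libraries, and the median includes them. Col1a1 was at 7.24 and 4.27 CPM in Ctrl and 11.0 and 16.0 CPM in KCl (1.23 ± 1.29, SE, n = 2 against 2; edgeR adjusted p = 1.00) and Fn1 at 3.52 and 2.77 CPM against 4.95 and 8.95 CPM (1.14 ± 0.77, adjusted p = 0.907). Vtn, given as a description, was at 0.852 and 0.678 CPM in Ctrl and 2.71 and 2.24 CPM in KCl. None of the 7 testable genes passed a 2-fold change and an adjusted p of at most 0.05 in WT soma, where 1.33% of all genes were called higher and 0.0873% lower (4.31% and 2.54% at an unadjusted p), and DESeq2 called none of them (2.48% and 0.985%). In the 4 WT soma libraries alone Col1a1 (1.16 ± 0.28, adjusted p = 0.0292) and Fn1 (1.07 ± 0.29, adjusted p = 0.0436) passed, with 4.21% of all genes higher and 3.65% lower, while in the 8 WT libraries alone Fn1 passed (adjusted p = 0.0289) and Col1a1 did not (1.16 ± 0.60, adjusted p = 0.261). Markers of several cell types were also higher in KCl-treated WT soma without overlap, at 1670 to 1690 against 1180 to 1200 CPM for astrocytes, 41.2 to 46.4 against 23.2 to 25.6 CPM for mural cells, 36.6 to 39.6 against 21.8 to 23.5 CPM for microglia, 4.51 to 5.21 against 3.72 to 4.08 CPM for fibroblasts and 6070 to 6220 against 4460 to 4640 CPM for neurons. Endothelial markers were lower (38.0 to 40.0 against 41.0 to 42.3 CPM), and choroid plexus and oligodendrocyte lineage markers overlapped. The part of these cells was not tested. In WT neurites the median was -0.54 against -0.03, and Dcn and Col1a2 were lower in both KCl libraries, in a class with 27.5% of all genes. None of the 7 passed there (1.09% of all genes higher and 0.104% lower, 3.75% and 2.37% at an unadjusted p, none of the 7 with DESeq2 at 2.03% and 0.784%).

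In Mettl3 KO the KCl response again turned on insert 1. In KO neurites the median log2 difference was 3.74 against 0.07 for all genes with all libraries, and none of the 7 testable genes passed (0.937% of all genes higher and 0.0676% lower, 9.27% and 3.86% at an unadjusted p). DESeq2 called Col1a1, Col1a2, Col3a1 and Dcn higher, with a background of 3.72% higher and 1.39% lower, and Bgn, Col3a1 and Vtn did not overlap, in a class with 19.6% of all genes. The picking of Bgn and Vtn used the untreated libraries of this comparison. Without insert 1 none was called, with 1.64% of all genes higher and 0.197% lower, and the median was -0.23. In KO soma none passed without it (1.45% and 0.236%) or with it (0.976% higher and 0.194% lower with it, 7.80% and 4.84% at an unadjusted p, none with DESeq2 at 3.17% and 2.02%). The change of neurite enrichment with KCl was below 0 in WT for all 7 testable genes (-0.20 to -1.97), against a median of -0.06 over all genes. For Dcn, Col1a2, Fn1 and Igfbp2 both KCl inserts lay below both Ctrl inserts, where 20.5% of all genes did. Without the untreated WT insert 2 the change of Lum was 0.66. None of the 7 was called, where 0.427% of all genes were called higher and 0.828% lower, and none with DESeq2 (0.431% and 0.621%). Bgn, Vtn and Spp1 were below 0 too, but their picking used the untreated inserts. In the 8 WT libraries that this contrast compares, fitted alone, Col1a2, Col3a1 and Fn1 were called lower, with 2.00% of all genes higher and 1.35% lower. In KO it was 2.53 ± 0.85 for Dcn (SE, n = 2 against 2 inserts; edgeR adjusted p = 0.683), the only call, where 1.60% of all genes were called higher and 5.19% lower, and 1.19 ± 0.88 without insert 1 (edgeR adjusted p = 0.975). DESeq2 called Dcn and Col3a1 (1.19% higher and 7.91% lower), and without insert 1 the only call was Igfbp2, lower, with 0.866% of all genes higher and 2.10% lower. As a description, it was 4.05 for Vtn and 2.44 for Bgn in KO and -1.43 and -1.52 in WT, in contrasts that share the untreated inserts with the one on which they were picked.

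The other genes of matrix assembly, remodelling and signalling were taken as 9 lists of 141 genes in all. None of the 131 to 135 that could be tested passed in any comparison of neurites with soma or of KO with WT in the 16-library fit. DESeq2 called none between neurites and soma, and between KO and WT 2 higher and 1 lower in untreated soma (0.804% and 0.952% of all genes), 1 higher in untreated neurites (0.527% of all genes), 6 higher and 1 lower in KCl-treated soma (2.29% and 1.94%) and 36 higher in KCl-treated neurites (7.01%). Without the KCl-treated KO insert 1 edgeR called none between KO and WT after KCl. In untreated libraries the edgeR fit without that insert did call genes between KO and WT. Ccn1 was called higher in KO soma and neurites, Fbln1 higher in KO neurites and Mfap4 lower in KO soma. That is 1 higher and 1 lower of 133 tested in soma, and 2 higher of 131 in neurites. The fit was added after seeing the data, and the share of all genes that it called is not given. With only the libraries compared, 18 of 132 list genes were higher and 8 lower in untreated WT neurites against soma (10.6% and 3.21% of all genes), and 2 and 7 of 133 after KCl (6.16% and 1.68%). Under KCl 3 genes were called, all of them higher, among 131 to 134 tested, where 0.937% to 1.33% of all genes were higher. DESeq2 called 6, 3, 4 and 22 higher in WT soma, WT neurites, KO soma and KO neurites, where 2.48%, 2.03%, 3.17% and 3.72% of all genes were, and was not run without the KCl-treated KO insert 1. Ccn1, an integrin-binding matricellular protein induced by many stimuli, was at 3.61 and 3.90 CPM in WT soma Ctrl and 280 and 275 CPM after KCl, a log2 difference of 6.21 ± 0.58 (SE, n = 2 against 2; edgeR adjusted p = 0.000823). It rose in WT neurites by 4.31 ± 0.54 (adjusted p = 0.00329), in KO soma by 2.74 ± 0.49 (adjusted p = 0.0227) and in KO neurites by 2.97 ± 0.49 (adjusted p = 0.0145), and without the KCl-treated KO insert 1 by 2.08 ± 0.33 and 2.07 ± 0.33 in KO (adjusted p = 0.00999 and 0.0104). Untreated Ccn1 levels were 3.61 to 11.2 CPM in WT and 19.7 to 26.4 CPM in KO libraries. Plat, tissue plasminogen activator, rose in all 4 comparisons by 1.99 to 2.84 (adjusted p = 0.00207 to 0.00624), for instance from 55.3 and 49.5 to 216 and 300 CPM in WT soma. Adamts1, a protease of proteoglycans, rose in WT soma by 1.67 ± 0.28 (adjusted p = 0.0101), in KO soma by 2.11 ± 0.29 (adjusted p = 0.00560) and in KO neurites by 1.76 ± 0.28 (adjusted p = 0.0126) and did not pass in WT neurites, a difference between compartments that was not tested. Without insert 1 these genes were still called in KO, with 1 KCl library a group whose spread is taken from the other groups.

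For the change in neurite enrichment between KO and WT, few list genes passed the unadjusted rule. In untreated inserts 5 were higher and 6 lower of 133 tested, where 2.91% and 1.28% of all genes were. The lower ones included the laminin chain Lama4 (-1.81 ± 0.50, SE, n = 2 against 2 inserts; edgeR adjusted p = 0.934), Ccn2 (-2.16 ± 0.83, edgeR adjusted p = 0.934), the collagen chain Col8a1 (-2.15 ± 0.81, edgeR adjusted p = 0.934), Igfbp7 (-1.71 ± 0.65, edgeR adjusted p = 0.934) and the collagen cross-linking enzyme Loxl2 (-1.63 ± 0.71, edgeR adjusted p = 0.934). Higher were the receptor Tgfbr1 (1.01 ± 0.26), Col12a1 (1.07 ± 0.43), Mfap2 (1.07 ± 0.40), Ppib (0.96 ± 0.37) and the procollagen protease Bmp1 (0.83 ± 0.31). In KCl-treated inserts 9 were higher and 1 lower of 134, where 0.715% and 1.10% of all genes were, and without the KCl-treated KO insert 1 the count was 1 and 5 of 132, where 0.421% and 0.792% of all genes were. Mfap4, a microfibril protein, was at 1.85 ± 0.53 with that insert and 1.02 ± 0.45 without it, and the small proteoglycan Ogn at 2.02 ± 0.85 and 1.17 ± 1.25. Between KCl and Ctrl inserts 1 list gene was higher and 6 lower in WT (0.427% and 0.828% of all genes), among them Ccn1 (-1.82 ± 0.39) and Lama4 (-1.68 ± 0.51), with Col14a1 the higher one (1.78 ± 0.58), and only Mfap4 was called in KO (1.70 ± 0.54), where 1.60% of all genes were higher and 5.19% lower. Without insert 1 no list gene was higher in KO and 8 of 131 were lower (0.866% and 2.10% of all genes).

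By level, the list genes ranged far above most of the 10. Per kilobase the secreted collagen-binding proteins Sparcl1 and Sparc had a mean over 16 libraries of 126 and 83.1 RPKM. P4hb and Serpinh1, which fold collagen, were at 91.9 and 32.7 RPKM, the protease inhibitor Timp2 at 51.4 and Plat at 22.8, Ccn1 at 50.9 and Tgfb2 at 8.27, the syndecan Sdc3 at 29.5 and the collagen receptor Ddr1 at 21.6, and Igfbp5 and Igfbp4 at 27.5 and 18.6. Lower were Prelp and Fmod at 15.5 and 2.65, Agrn and Lamb1 at 8.75 and 6.69, and Col6a1 and Col11a2 at 2.44 and 1.98 RPKM. Serpinh1, which binds procollagen, was at 7.84 to 34.3 RPKM in the 14 libraries and at 110 and 212 RPKM in the soma and neurites of the KCl-treated KO insert 1, and Fmod at 0.499 to 1.74 against 10.6 and 19.8 RPKM.

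The genes whose log2 CPM over the 16 libraries was most like that of Col1a1 were Loxl2 (Pearson r = 0.941), Bgn (0.919) and Col1a2 (0.906), and those most like Bgn were Loxl2 (0.949), Col1a2 (0.923) and Col1a1 (0.919), among 12691 protein-coding genes averaging 100 or more counts. Those most like Vtn were Snx7 (0.863), Bgn (0.845) and Ints9 (0.843). Spp1 was most like Lpl (0.869), Pum2 (0.847) and Acsl5 (0.820), none of them a matrix gene. The libraries share the extreme insert and the compartment, so these are descriptions. Without the KCl-treated KO insert 1, Loxl2 stayed the most like gene for Bgn (0.851) and Col1a1 (0.836), while the first place passed to Usp31 for Spp1 (0.867) and to Slc18a2 for Vtn (0.865). Over the 45 pairs of the 10 genes the median r was 0.784 with 16 libraries and 0.493 with 14, where the range was -0.267 to 0.831. The lowest of these was that of Spp1 with Igfbp2.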

How the data were processed

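RNA-seq libraries of WT and Mettl3 KO hippocampal neurons (8 groups, 2 each) were analysed. Reads were aligned by the authors with STAR 2.7.7a to mm10 and counted with featureCounts 2.0.1 on the Ensembl release 97 annotation (multi-mapping reads included, no strand), and the deposited values are raw counts per gene. The deposited exon length is in bases. The DART-seq tables hold the authors' editing scores per RNA and a C-to-U fraction per site, averaged by the authors, with the number of called sites. The authors' DESeq2 and DART-seq tables also hold fold changes and p-values of their own comparisons, which were not used, and their columns of gene names and biotypes were.

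From the counts, CPM and RPKM were computed on TMM-scaled library sizes. Tests used edgeR 4.0.16 (quasi-likelihood F-test, R 4.3.3) on all 16 libraries with 1 coefficient per group, or 1 term per insert for changes in neurite enrichment, over genes averaging 10 or more counts across the compared libraries, with Benjamini-Hochberg adjustment over all genes tested. Calls needed a 1.5-fold change (2-fold for KCl) and an adjusted p of at most 0.05, or for changes in enrichment an unadjusted p of at most 0.05. The SE of a log2 difference was taken from the F statistic. An exact test on 2 against 2 libraries could not go below p = 0.333. DESeq2 1.42.0, RLE scaling, other filters, the compared libraries alone, replicate blocks and leaving out each insert were tried, and fits without the KCl-treated KO insert 1 or with the 8 WT libraries alone were added after seeing the data. The fitting code was tested on simulated data.

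The 10 genes and the lists were chosen with earlier results of these data known. Named beside the 10 genes and Mettl3 are, from each of 9 pathway lists, up to 2 called genes per direction and comparison with the largest change and the 2 of highest mean RPKM, the 3 genes most like Bgn, Spp1, Vtn and Col1a1 (Pearson r of log2 of CPM + 0.1) and the first 2 markers of a list. Rgs5 and Ttr are such first markers. A list gene that this rule also names is not reported here. For the DART-seq site values neither depth nor replicate spread is known, and at 2 libraries per group p-values measure only the spread between these samples. Soma and neurites of a number were taken as 1 insert, after the paired design in the study's methods. The correlation over genes of the difference between replicate 1 and 2 in soma with that in neurites was -0.141 (WT Ctrl), 0.031 (WT KCl), 0.076 (KO Ctrl) and 0.898 (KO KCl). Amino acid sequences were not used here.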

Additional observations from a re-analysis of the deposited data

Results flagged for a closer look

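The change in neurite enrichment between Mettl3 KO and WT after KCl differed from 0 by the unadjusted rule for Spp1 (-1.64), Dcn (2.39) and Vtn (1.95), and the change between KCl and Ctrl in Mettl3 KO for Dcn (2.53). Each is a tested difference between 2 neurite-to-soma contrasts, with no call at an adjusted p under the filter used. With no filter on low counts both Dcn changes passed (edgeR adjusted p = 0.0452 for KO against WT after KCl and 0.000645 for KCl against Ctrl in KO). The SE there was 0.541 and 0.535, against 0.848 and 0.846 under the filter used, while the changes were nearly the same (2.42 and 2.49). The share of all genes that passed without the filter is not given, so these passes add no support for Dcn. In the KCl-treated KO insert 1, on which the values of Dcn and Vtn depended most, glial and fibroblast markers were also high, and their part was not tested.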

How the results depend on the processing

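Calls of the 10 genes over each family of comparisons, leaving out those the selection used, moved with the libraries that shared the estimate of spread. Calls over all genes moved too. In untreated WT neurites against soma 0.0% were higher in the main fit and 10.6% with only the libraries compared. In KCl-treated neurites of KO against WT 0.102% were higher in the main fit and 7.01% with DESeq2. Where no share of all genes is given for a setting, a count below cannot be told apart from such a rise. In neurites against soma 0 of 34 were called, 8 of 34 with only the libraries of the comparison, and 0 in the other alternatives over all 34 (DESeq2, RLE scaling, no filter, a mean count of 100), each insert left out (0 to 0) and the replicate block (1 term per insert) included. In KO against WT 0 of 34 were called, 4 with DESeq2, 1 without the KCl-treated KO insert 1 in all fits, and 0 to 14 on leaving out 1 insert. The 14 came without the KCl-treated KO insert 2, which leaves insert 1 as the only KO sample of KCl, assumed to vary like the other groups. The replicate block gave 0. In KCl against Ctrl 0 of 28 were called, 4 with DESeq2, 2 with only the libraries compared and 0 to 8 on leaving out 1 insert (8 without the KCl-treated KO insert 2), with 0 under the replicate block. For the change in neurite enrichment 4 of 24 were called, 14 with no filter on low counts, 8 with only the libraries compared, 0 with no replicate block, 1 without the KCl-treated KO insert 1 in all fits, 0 at an adjusted p, and 1 to 8 on leaving out 1 insert. With the 8 WT libraries alone, 6 genes were called in untreated WT neurites against soma and 1 after KCl. Of 160 fold changes of the 10 genes, 2 turned direction with DESeq2, 2 with RLE scaling, 3 with no filter and 0 with only the libraries compared. Of 40 in each family, 2 turned under the insert block (Spp1 in untreated KO neurites among them), 1 under the replicate number block (Lum in KO against WT soma, untreated, at -0.04) and 2 with no replicate block. Without the KCl-treated KO insert 1, 38 of 70 turned, and 1 to 12 of 70 without any other insert, such as Lum in untreated WT neurites against soma, at -0.34 without insert 2 and 1.33 without insert 1. CPM on raw library totals moved 14 of 80 group levels of the 10 genes and 23 of 64 marker sums by more than 1 SD. The cause of these differences was not tested. Low depth limits Lum, Dcn and Vtn most, and no DART-seq alternative was run.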
